A study of Homo sapiens with 6 samples.

Results

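Sites that lay within 10 bases of another listed site were examined in ac4C-seq of PANC-1, a long-established line of human pancreatic cancer cells. A site was counted as clustered when the same table listed another site 1 to 10 bases away on the same chromosome and strand, and a cluster was a chain of such sites. By this rule 185 of 1352 sites (13.7%) were clustered in the control and 119 of 1001 sites (11.9%) in NAT10 knockdown, which gave 304 of 2353 sites in all. The rule used position and strand only, so the bases, the read counts and the mismatch levels of the members were free to vary.

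The 6 samples were 3 of control PANC-1 cells and 3 of PANC-1 cells with NAT10 silenced, and all 6 came from the same line. For the silencing, siRNA and shRNA are both given in the labels, and nothing states that the replicates came from separate cultures. Messenger RNA of each sample was divided into an untreated aliquot and a portion reduced with 100 mM NaBH4 at 55 degrees for 30 minutes, so that 12 libraries were sequenced. Each table is a joint list over the 3 replicates of a group, so that a site belongs to a group as a whole. The level of NAT10 itself was not analysed here, so the silencing could not be checked from these tables.

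N4-acetylcytidine (ac4C) is an acetylated form of cytidine that NAT10 writes on ribosomal RNA, transfer RNA and messenger RNA. Sodium borohydride reduces ac4C to a form that mispairs during reverse transcription, and some of the reads then carry T where the RNA held the modified cytidine. Adenosine, guanosine and thymidine cannot carry this mark, and thymidine here stands for the uridine of the RNA.

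Sequence around the members was available for the clusters that fell near a RefSeq start site, which were 9 in the control and 3 in NAT10 knockdown. In these windows the listed base was the reference base on the listed strand at 75 of 75 control sites and 28 of 28 sites of NAT10 knockdown, clustered or not. The 8 stretches below are from RefSeq GRCh38.p14, are written 5′ to 3′ on the listed strand, and show the sites of the cluster in capitals. They were chosen to show different kinds of neighbour, namely paired guanosines, paired cytidines, cytidine with guanosine, and mixed clusters of 3 sites, and not in proportion to how often each kind occurred.
TSR3 (control, chr16:1351829-1351847, minus strand, 41 and 42 bases after the start): gcggccgtgGGgtggggag
MRPL12 (control, chr17:81703374-81703395, plus strand, 17 to 20 bases after the start): ccggctcgaAtGCccggcagcc
PDCD10 (control, chr3:167734916-167734937, minus strand, upstream of the start): acgactccgGCtGggcaggatt
PHKG2 (control, chr16:30748449-30748470, plus strand, 34 to 37 bases after the start): cgcagctcgCgtCgaccctggc
HS1BP3 (control, chr2:20651049-20651065, minus strand, 43 and 44 bases after the start): tcatgcagtCCccggcg
PSMD12 (NAT10 knockdown, chr17:67366583-67366607, minus strand, upstream of the start): gcctgagcgGgtGcgCgggcaactt
ACTR3 (NAT10 knockdown, chr2:113890058-113890077, plus strand, upstream of the start): ggggcagggCGgggactgcc
UBXN4 (NAT10 knockdown, chr2:135741840-135741859, plus strand, upstream of the start): gccgcagagCCggacgaaga
The windows held 20 clustered control sites and 7 clustered sites of NAT10 knockdown, and the sequence around the other members was not analysed here.

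Every clustered site had at least 3 mismatched reads, that is reads with a base other than the reference, in every treated library. No clustered site had a mismatched read in any untreated library, out of 80201 such reads for the control and 57557 for NAT10 knockdown. A count of 0 in these totals allows a pooled share of up to 0.00374% and 0.00521%. Both properties also held for the other listed sites, so they describe how the tables were made and set the members apart from nothing. At single members the untreated depth was smaller, with 6 reads in the shallowest untreated control library and 5 reads in that of NAT10 knockdown. Summed over the 3 treated control libraries, the median depth was 593 reads at clustered and 588 reads at other sites. In NAT10 knockdown the medians were 463 and 584 reads. Summed mismatched reads had a median of 14 at clustered sites and 13 at other sites in both tables.

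The control sites formed 81 clusters, of which 62 held 2 sites, 16 held 3, 2 held 4 and 1 held 5. NAT10 knockdown had 48 clusters, of which 32 held 2 sites, 11 held 3, 3 held 4 and 2 held 5. The share of clustered sites was 1.8 percentage points lower in NAT10 knockdown, a difference that did not pass the threshold (odds ratio 0.851, 95% interval 0.659 to 1.1, Fisher's exact test, two-sided, adjusted p = 0.311). The test counts sites and not samples. Clusters were short, spanning at most 9 bases in the control and 11 bases in NAT10 knockdown, counting the first and the last site.

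Neighbouring pairs, meaning successive sites of a cluster, numbered 104 in the control and 71 in NAT10 knockdown. Adjacent sites made up 37 of the control pairs, sites 2 bases apart 35 and sites 3 bases apart 21. Together 93 of 104 control pairs (89.4%) were 1 to 3 bases apart, although the rule allowed up to 10. NAT10 knockdown had 27 adjacent pairs, 22 pairs 2 bases apart and 12 pairs 3 bases apart, or 61 of 71 (85.9%) within 3 bases. Beyond 6 bases there was 1 control pair, at 8 bases, and there were 2 pairs of NAT10 knockdown, at 7 and 10 bases.

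**Figure D1:**
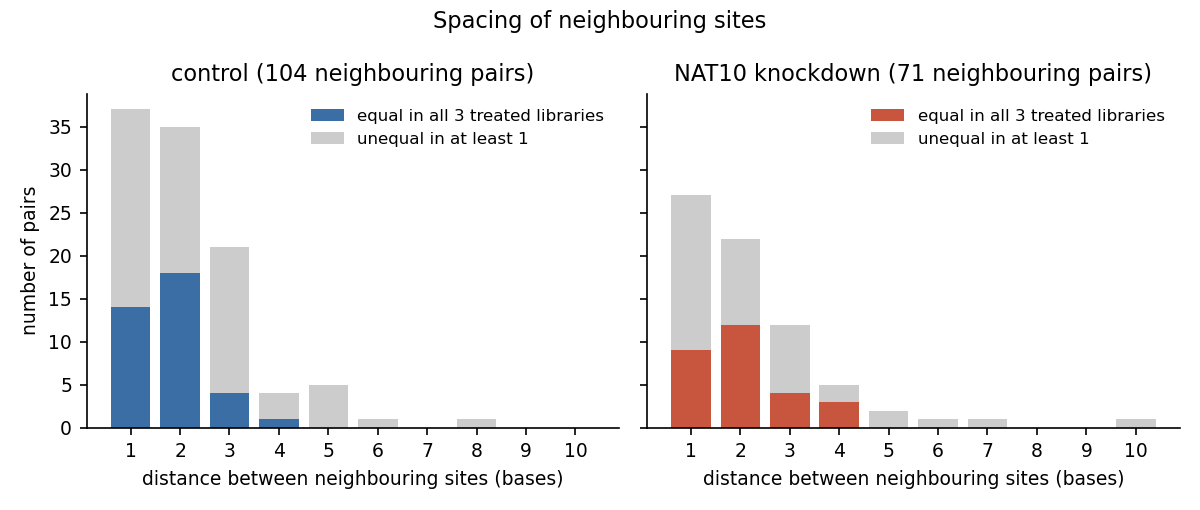
Number of neighbouring pairs (vertical axis) by the distance between the 2 sites in bases (horizontal axis), control on the left and NAT10 knockdown on the right. The coloured part of each bar counts pairs with equal mismatched read counts in all 3 treated libraries and the grey part the remaining pairs, and most pairs sit at 1 to 3 bases in both tables.

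The reference bases of the members were compared with those of the other sites, since ac4C is a mark of cytidine. Cytidine made up 62 of 185 clustered control sites (33.5%) and 332 of 1167 other control sites (28.4%), which did not pass the threshold (odds ratio 1.27, 95% interval 0.895 to 1.78, Fisher's exact test, two-sided, adjusted p = 0.262). In NAT10 knockdown cytidine made up 56 of 119 clustered sites (47.1%) and 236 of 882 other sites (26.8%), a higher share among clustered sites (odds ratio 2.43, 95% interval 1.61 to 3.66, exact test, adjusted p = 4.29e-05). The difference between the tables had a ratio of odds ratios of 1.92 (95% interval 1.15 to 3.2, interaction term of a logistic model), and it passed the threshold after adjustment by a likelihood ratio test. Sites of a cluster are not independent. With only the most upstream site of each cluster counted, the odds ratio was 0.825 in the control, below 1, and 3.23 in NAT10 knockdown. The most upstream site was cytidine more often than the most downstream in NAT10 knockdown, and less often in the control. These odds ratios thus rest on the choice of site, and the most downstream site was not tested.

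Bases that cannot be acetylated to ac4C were thus the majority of the members in both tables. Adenosine was listed at 58 clustered control sites (31.4%), guanosine at 38 (20.5%) and thymidine at 27 (14.6%). Among the other control sites the shares were 39.9%, 15.4% and 16.2%. In NAT10 knockdown 28 clustered sites (23.5%) were adenosine, 18 (15.1%) guanosine and 17 (14.3%) thymidine, against 41.0%, 15.9% and 16.3% of the other sites. By cluster, 35 of 81 control clusters (43.2%) and 15 of 48 clusters of NAT10 knockdown (31.2%) held no cytidine. Clusters made of cytidines alone numbered 13 and 10.

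The most frequent other base, summed over the treated libraries, gave the direction of each mismatch. A tie for the leading base, found at 0 clustered and 41 other control sites and at 1 and 44 sites of NAT10 knockdown, was counted as none of the changes. All sites read C-to-T in 3 control clusters (3.7%) and 2 clusters of NAT10 knockdown (4.17%). At least 1 C-to-T site was present in 21 control clusters (25.9%) and 20 clusters of NAT10 knockdown (41.7%), and in 18 of each the C-to-T site stood beside another kind of change. More than 1 kind of change occurred in 67 of 81 control clusters (82.7%) and 45 of 48 clusters of NAT10 knockdown (93.8%). Most clusters were thus mixtures of changes within a few bases. How often sites far apart differ in their change was not counted here, so the mixture does not set clusters apart.

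Counted over all clustered cytidines, G was the leading other base more often than T. G led at 32 of 62 clustered control cytidines (51.6%), T at 24 (38.7%) and A at 6 (9.68%), whereas at other control cytidines T led at 59.9% and G at 23.5%. With 1 cytidine per cluster, T led at 16 of 46 clustered cytidines (34.8%) against 199 of 332 others (59.9%), a lower share (odds ratio 0.357, 95% interval 0.175 to 0.708, Fisher's exact test, two-sided, adjusted p = 0.0029). In NAT10 knockdown G led at 29 of 56 clustered cytidines (51.8%), T at 24 (42.9%) and A at 3 (5.36%). With 1 cytidine per cluster T led at 16 of 33 there (48.5%), which was more often than G. Against T at 132 of 236 others (55.9%) the difference did not pass the threshold (odds ratio 0.742, 95% interval 0.333 to 1.65, exact test, adjusted p = 0.601). No T read was seen in any treated library at 17 of 62 clustered control cytidines and 16 of 56 of NAT10 knockdown. Among the other cytidines this held at 23 of 332 and 16 of 236. These comparisons of the other base, and those of the next paragraphs up to the agreement between libraries, were chosen after their values had been seen.

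Counting reads in place of sites, the T share was lower at clustered than at other cytidines in every library. In the treated control libraries T made up 41.6%, 43.9% and 51.0% of the mismatched reads at clustered cytidines, and 56.1%, 59.2% and 55.2% at other cytidines. The 3 clustered values lay below the 3 values of the other cytidines. The mean was 45.5% ± 4.9 (SD, n = 3) at clustered and 56.8% ± 2.1 at other control cytidines. For NAT10 knockdown the means were 44.7% ± 0.854 (SD, n = 3) and 55.6% ± 1.64. The T share at clustered cytidines differed between the groups by -0.808 percentage points, less than the SD of the control. G reads took 45.2% ± 4.69 of the mismatched reads at clustered control cytidines and 28.2% ± 1.88 at the others, and 48.8% ± 2.27 and 30.5% ± 1.19 in NAT10 knockdown. By reads neither base led throughout at clustered control cytidines. G led in replicates 1 (49.5% against 41.6% for T) and 2 (45.9% against 43.9%), and T led in replicate 3 (51.0% against 40.2% for G). G led T in every library of NAT10 knockdown. The median C-to-T level, the percent of all reads with T at a cytidine, was 0.399% ± 0.424 at clustered and 1.05% ± 0.0611 at other control cytidines. In NAT10 knockdown it was 0.433% ± 0.142 and 1.04% ± 0.0905.

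Guanosine and thymidine members had their own leading changes. G-to-T led at 31 of 38 clustered control guanosines (81.6%), against 30.0% of the other guanosines, where G-to-A led at 60.0%. With 1 guanosine per cluster T led at 26 of 33 (78.8%) against 54 of 180 others (odds ratio 8.57, 95% interval 3.37 to 24.8, Fisher's exact test, two-sided, adjusted p = 1.16e-06). In NAT10 knockdown it led at 12 of 15 (80.0%) against 25 of 140 others (17.9%), with an odds ratio of 17.9 (95% interval 4.41 to 106, exact test, adjusted p = 7.64e-06). T-to-G led at 20 of 27 clustered control thymidines (74.1%) and 33.3% of the others, and at 82.4% and 37.5% in NAT10 knockdown. Adenosine members differed less by these counts: A-to-G led at 37.9% of the clustered and 45.5% of the other control adenosines, and A-to-T at 48.3% and 43.6%. Whatever the reference base, G or T was the leading other base at 157 of 185 clustered control sites (84.9%) and 809 of 1167 others (69.3%). In NAT10 knockdown the counts were 104 of 119 (87.4%) and 603 of 882 (68.4%).

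**Figure D2:**
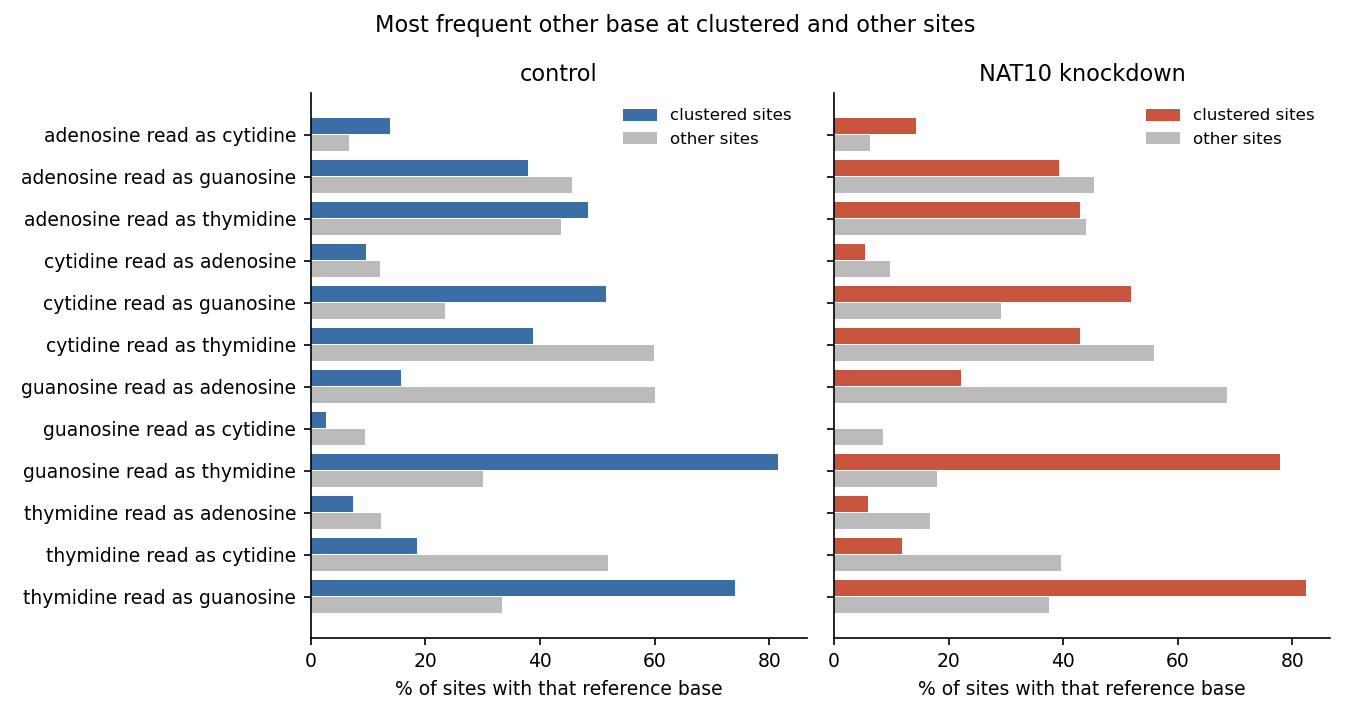
Share of the sites with a given reference base (horizontal axis, %) at which each other base was the most frequent in the treated libraries, for clustered sites (coloured) and other sites (grey), control on the left and NAT10 knockdown on the right. Guanosine read as thymidine reached 81.6% of clustered control guanosines, and cytidine read as guanosine led at 51.6% of clustered control cytidines.

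The other base of a member was mostly the same in the 3 treated libraries. All 3 control libraries had the same most frequent other base at 163 of 185 clustered sites and at 529 of 1167 other sites. With 1 site per cluster the counts were 72 of 81 (88.9%) and 529 of 1167 (45.3%), a difference of 43.6 percentage points (odds ratio 9.63, 95% interval 4.74 to 22.1, Fisher's exact test, two-sided, adjusted p = 3.3e-14). For NAT10 knockdown the counts were 43 of 48 (89.6%) and 339 of 882 (38.4%), with an odds ratio of 13.7 (95% interval 5.38 to 44.9, exact test, adjusted p = 7.32e-12). A library with a tie counted as unlike. Among all clustered sites of NAT10 knockdown 105 of 119 had the same other base throughout.

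The mismatched read counts of neighbours were then set against each other. Pairs 300 to 5000 bases apart on the same strand, in which no site was used more than once, served for comparison and numbered 61 in the control and 38 in NAT10 knockdown. Clustered sites could enter them too, and in SRRM2 more than 1 site of the same cluster did. The distant pairs are thus not all independent of each other or of the neighbouring pairs. Equal counts of mismatched reads in all 3 treated libraries were found in 37 of 104 neighbouring control pairs (35.6%) and in 4 of 61 distant pairs (6.56%). With 1 pair per cluster, the closest and then the most upstream, 27 of 81 neighbouring pairs (33.3%) were equal, 26.8 percentage points more than distant pairs (odds ratio 7.04, 95% interval 2.24 to 29.5, Fisher's exact test, two-sided, adjusted p = 0.000232). NAT10 knockdown had 28 of 71 equal neighbouring pairs (39.4%), or 18 of 48 with 1 pair per cluster (37.5%), against 2 of 38 distant pairs (5.26%). That difference was 32.2 percentage points (odds ratio 10.5, 95% interval 2.24 to 101, exact test, adjusted p = 0.00131).

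A pair did not have to agree in every library to be close. Among the control pairs 37 agreed in 3 libraries, 37 in 2, 20 in 1 and 10 in none. In NAT10 knockdown 28 pairs agreed in 3 libraries, 24 in 2, 14 in 1 and 5 in none. Counts that differed by at most 1 read in every library were found in 68 of 104 control pairs (65.4%) and 44 of 71 pairs of NAT10 knockdown (62.0%), against 24.6% and 23.7% of distant pairs. Per library, 70.2%, 64.4% and 62.5% of the control pairs were equal, with a mean of 65.7% ± 4.01 (SD, n = 3). The 3 libraries of NAT10 knockdown ranged from 59.2% to 77.5%, with a mean of 68.6% ± 9.16. The groups overlapped, and distant pairs were equal in 21.3% ± 4.33 and 24.6% ± 3.0 of cases per library.

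The size of the counts and the depth stand beside this result. Counts were small, with a median of 4 mismatched reads per site and library in neighbouring as in distant pairs of both tables, and at least 5 mismatched reads at both sites in every library were seen in 4 neighbouring pairs of each table, of which 0 were equal in the control and 1 in NAT10 knockdown. Depth also moved with distance: the treated reads of neighbours differed by a median factor of 1.02 in the control and 1.01 in NAT10 knockdown, those of distant pairs by 1.64 and 1.9. Among pairs whose treated reads differed by less than 1.5 times, an alternative chosen after seeing the data, 27 of 79 neighbouring and 1 of 26 distant control pairs were equal (two-sided Fisher's exact test, p = 0.00175). In NAT10 knockdown 17 of 45 and 1 of 14 were equal (exact test, p = 0.0444, without adjustment). Where both summed counts were over 12, 13 of 46 neighbouring and 0 of 22 distant control pairs were equal, and 12 of 33 and 1 of 11 in NAT10 knockdown.

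**Figure D3:**
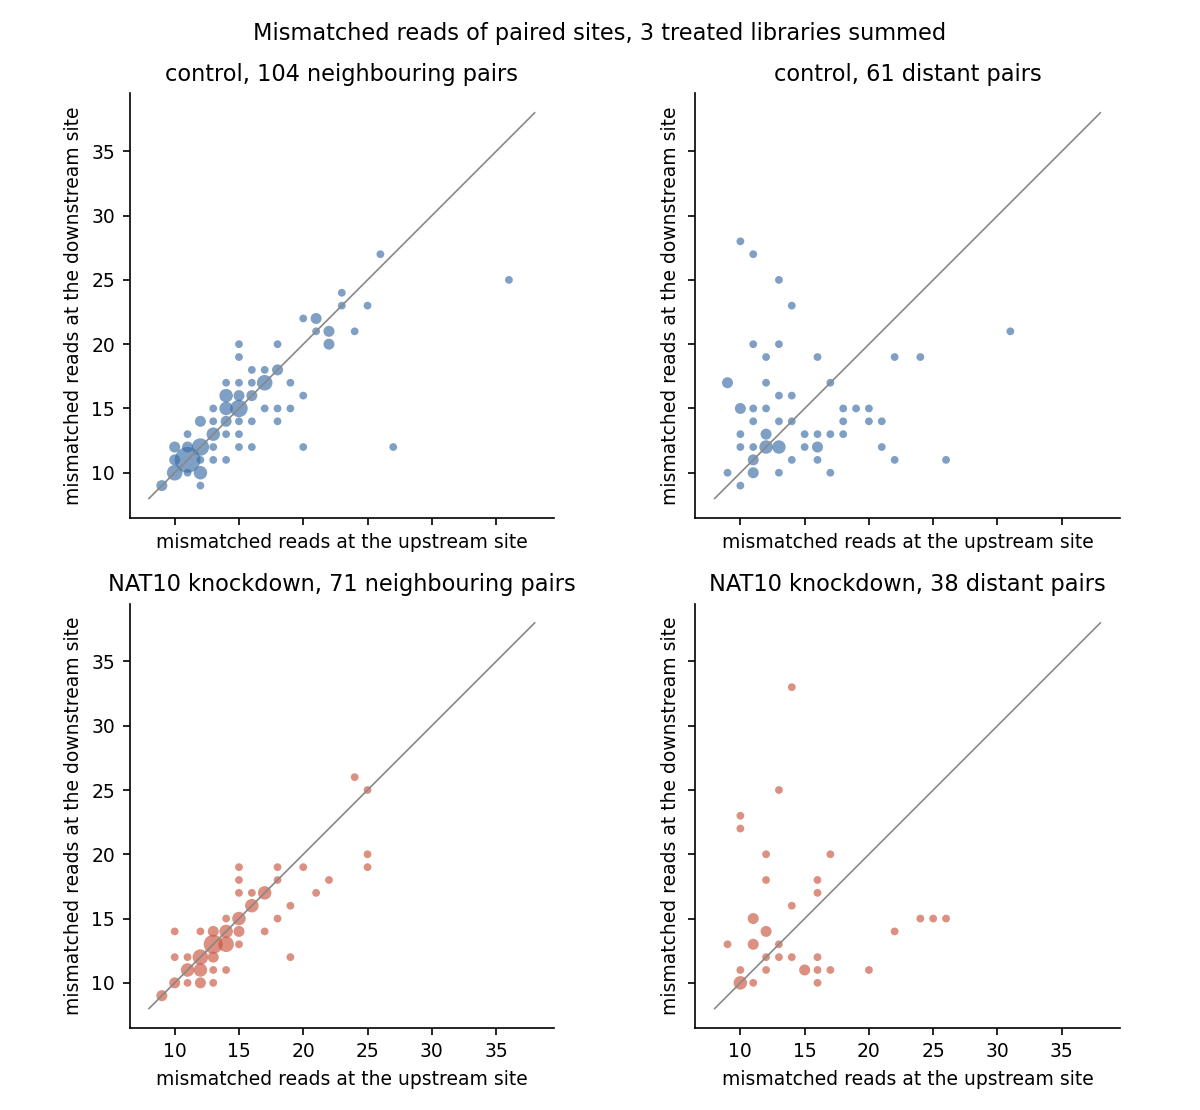
Mismatched reads summed over the 3 treated libraries at the upstream (horizontal axis) and downstream (vertical axis) site of neighbouring pairs (left) and distant pairs (right), control above and NAT10 knockdown below, with larger points for more pairs at the same values. Neighbouring pairs lie along the line of equal counts and distant pairs scatter about it.

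Pairs were divided by reference base, since a pair of cytidines could be acetylated at both sites and a pair without cytidine at neither. In the control 7 of 16 pairs of 2 cytidines were equal in all libraries (43.8%), 15 of 39 with 1 cytidine (38.5%) and 15 of 49 with no cytidine (30.6%). In NAT10 knockdown the counts were 9 of 20 (45.0%), 11 of 29 (37.9%) and 8 of 22 (36.4%). Equal counts thus occurred in every class, and the share per library in the control was 64.6% ± 7.27 (SD, n = 3) for 2 cytidines, 65.0% ± 5.32 for 1 and 66.6% ± 5.13 for none. With 1 pair per cluster, 10 of 29 control pairs of the same base (34.5%) and 17 of 52 of different bases (32.7%) were equal, with an odds ratio of 1.08 (95% interval 0.365 to 3.12, Fisher's exact test, two-sided, adjusted p = 1.0). In NAT10 knockdown 9 of 22 (40.9%) and 9 of 26 (34.6%) were equal (odds ratio 1.3, 95% interval 0.345 to 4.94, exact test, adjusted p = 0.819). The intervals are wide, so no difference was detectable at these numbers of pairs.

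The base combinations differed in number and in how often they were equal. In the control, without regard to order, the pairs were 18 of adenosine with cytidine, 17 of cytidine with guanosine, 16 of 2 cytidines, 13 of 2 adenosines and 13 of adenosine with thymidine, with fewer than 10 of each other kind. Cytidine with guanosine was equal in 10 of 17 control pairs (58.8%) and 5 of 9 in NAT10 knockdown (55.6%). Adenosine with cytidine was equal in 4 of 18 (22.2%) and 3 of 11 (27.3%). Guanosine with thymidine was equal in 2 of 9 control pairs and 4 of 4 pairs of NAT10 knockdown. Each of these classes is small, and the differences between them were not tested. By distance, 18 of 35 control pairs 2 bases apart were equal (51.4%), against 14 of 37 adjacent pairs (37.8%) and 4 of 21 pairs 3 bases apart (19.0%). For NAT10 knockdown the counts were 12 of 22 (54.5%), 9 of 27 (33.3%) and 4 of 12 (33.3%).

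Pairs of 2 cytidines were spaced differently by count in the 2 tables, without a test. In the control 5 of 16 were adjacent, 3 were 2 bases apart and 7 were 3 bases apart. In NAT10 knockdown 10 of 20 were adjacent, 7 were 2 bases apart and 2 were 3 bases apart. Both cytidines led with T in 3 control pairs, both with G in 4, and 1 with T and 1 with G in 8. In NAT10 knockdown the counts were 4, 4 and 10. A pair of neighbouring cytidines therefore often carried unlike leading changes, and this was not compared with distant pairs of cytidines.

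In some pairs each site was read as the base of its neighbour. In NOTCH2, a receptor of cell-to-cell signalling, an adjacent guanosine and thymidine were read as T and G, with 10, 12 and 3 and with 8, 12 and 3 mismatched reads in the control. In TLE3, a transcriptional corepressor, a thymidine and a guanosine 2 bases apart were read as G and T, with 8, 11 and 4 and with 8, 9 and 6, at levels of 10.0% ± 4.91 and 10.3% ± 2.11 (SD, n = 3). This exchange was seen in 10 of 70 control pairs of different bases (14.3%) and 4 of 42 of NAT10 knockdown (9.52%). Distant pairs of different bases showed it in 3 of 44 and 5 of 27, and the difference was not tested. With 1 adjacent pair per cluster, at least 1 site was read as the base of its neighbour in 10 of 22 control pairs (45.5%) and in 17 of 44 distant pairs (38.6%), which did not pass the threshold (odds ratio 1.32, 95% interval 0.411 to 4.2, Fisher's exact test, two-sided, adjusted p = 0.694). In NAT10 knockdown the counts were 5 of 12 (41.7%) and 16 of 27 (59.3%), with an odds ratio of 0.5 (95% interval 0.0969 to 2.39, exact test, adjusted p = 0.601).

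The largest clusters differed in how closely their sites moved together over the replicates. The cluster of 5 sites in PTP4A1, which encodes a protein tyrosine phosphatase, lay at chr6:63576870-63576877 on the plus strand, where LOC128125822 is also annotated. Its bases were A, T, A, A and T in 5′ to 3′ order and were read as C, G, G, T and G. All 5 sites had 4, 3 and 4 mismatched reads in control replicates 1, 2 and 3, of 102 to 122 reads in a library. These counts lie near 3, the fewest mismatched reads of any listed site in a treated library, and leave little room to vary. No site of this cluster was a cytidine, and the mean mismatch levels lay between 3.21% and 3.52%.

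TRIP12, a ubiquitin ligase, had 4 control sites at chr2:229810912-229810919 on the minus strand, with the bases T, A, C and G read as A, G, G and T. Each had 3, 7 and 7 mismatched reads in the 3 replicates, so replicate 1 was low at every site alike. FOXK2, a forkhead transcription factor, had 4 control sites at chr17:82520261-82520267 on the plus strand, with G, C, G and T read as C, A, T and G. The counts were 3, 8 and 3 at the guanosines, 3, 8 and 5 at the cytidine and 3, 9 and 3 at the thymidine. Replicate 2 was high at all 4 sites.

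In NAT10 knockdown, HSPG2, which encodes the basement membrane proteoglycan perlecan, had 5 sites at chr1:21847423-21847431 on the minus strand. The bases G, G, C, C and A were read as A, A, T, T and G. The first 3 sites had 6, 4 and 3 mismatched reads in the 3 replicates and the last 2 had 6, 4 and 4, of 29 to 56 reads. The mean levels were 12.4% to 13.0%, and both cytidines of the cluster were read as T. FBXW11, a substrate receptor of an SCF ubiquitin ligase, had 4 sites at chr5:171862669-171862675 on the minus strand, with A, C, C and T read as G, T, G and C. The first 3 sites had 3, 5 and 8 mismatched reads and the fourth 4, 5 and 7, at mean levels of 14.6% to 14.9%.

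The remaining clusters of 4 or 5 sites were less uniform. KHSRP, an RNA-binding regulator of mRNA decay, had 4 sites at chr19:6414488-6414493 on the minus strand, of which 3 had 3, 3 and 4 mismatched reads and the most upstream 3, 3 and 6. SYNJ2, an inositol phosphatase, had 7, 4 and 4 reads at the first, 10, 5 and 4 at the second and 5, 3 and 4 at both further sites, at chr6:158028858-158028863 on the plus strand. PIGK, a subunit of the GPI transamidase, had 5 sites at chr1:77154584-77154591 on the minus strand with 3 to 7 mismatched reads in a library, and in each replicate 1 site, a different one each time, stood above the other 4.

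**Figure D4:**
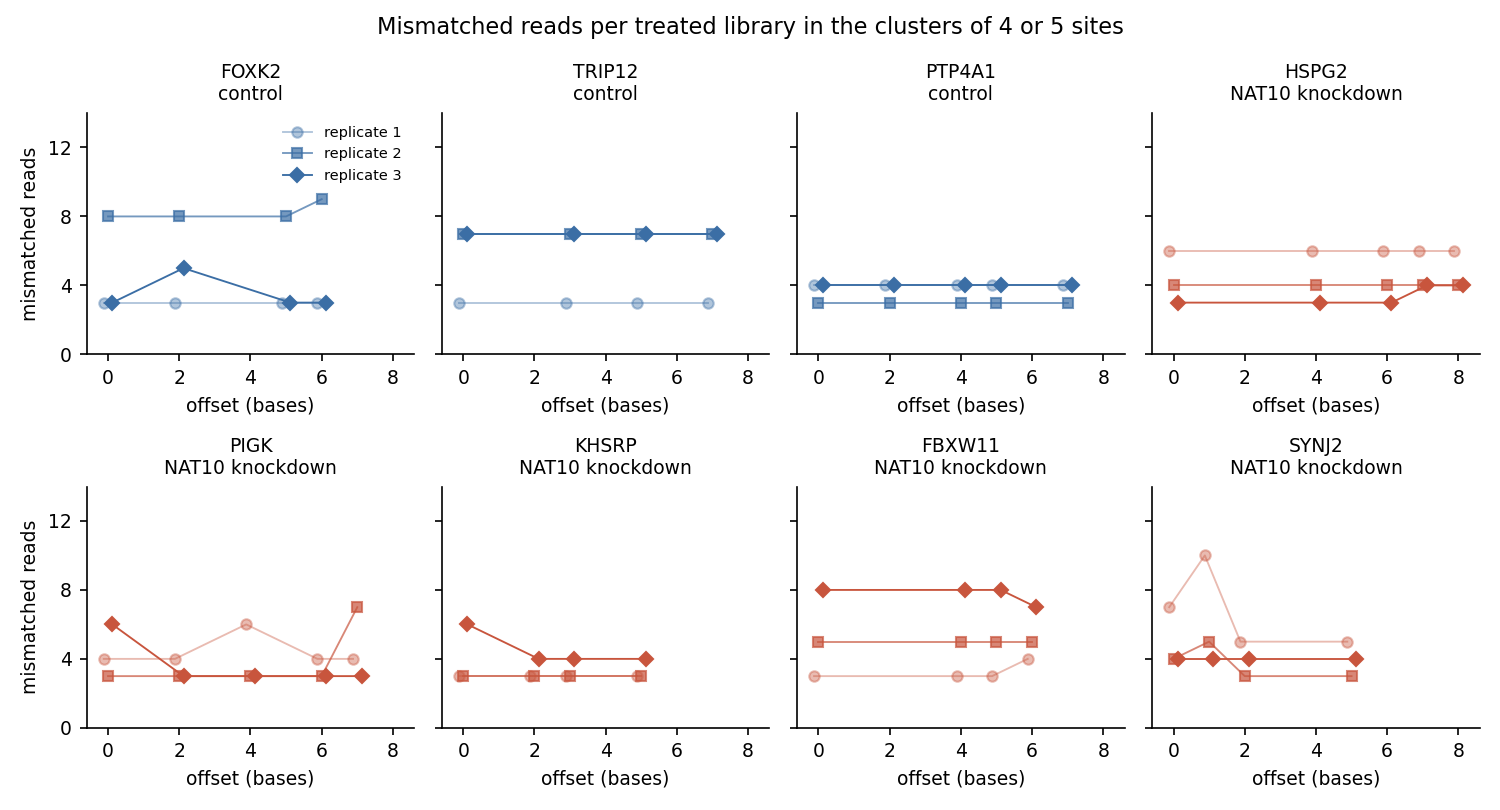
Mismatched reads (vertical axis) by the offset in bases from the most upstream site (horizontal axis) in the 8 clusters of 4 or 5 sites, 1 line for each treated replicate. The lines are flat in TRIP12 and PTP4A1 and cross in PIGK.

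Equal counts were not restricted to the largest clusters. In all, 26 of 81 control clusters (32.1%) and 13 of 48 of NAT10 knockdown (27.1%) had equal counts at every site in all 3 treated libraries. E2F4, a cell cycle transcription factor, had a cytidine read as A and an adenosine read as T, 2 bases apart, with 7, 3 and 11 mismatched reads at both. MAP3K11, a mixed lineage kinase, had a guanosine and an adenosine with 3, 3 and 9 reads at both, of 39 to 64 reads. TXNDC5, a protein disulphide isomerase of the endoplasmic reticulum, had a guanosine and a thymidine with 6, 7 and 3 reads at both, of 542 to 646 reads, so equal counts occurred in deep and in shallow places. The adjacent guanosines of TSR3, an enzyme that modifies ribosomal RNA, had 6, 3 and 7 reads at both and were read as T.

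Of the clusters of 3 sites, PPT1, a lysosomal thioesterase, had 7, 4 and 6 reads in NAT10 knockdown at all of its sites, 2 cytidines read as G and a guanosine read as T. The 3 sites upstream of the start of PDCD10 had 9, 3 and 6 mismatched reads each in the control, of 17 to 21 reads, at mean levels of 31.0% to 31.9%. MRPL12, a mitochondrial ribosomal protein gene, had 7, 5 and 10 control reads at its adenosine and its cytidine and 7, 4 and 10 at the guanosine between them. In PTMS the counts of the 3 sites were 4, 5 and 12, then 5, 6 and 11, then 4, 5 and 11. In RAD17, a checkpoint protein of DNA damage, 3 control adenosines had 8, 6 and 5, then 8, 6 and 3, then 9, 6 and 3. In these clusters the order of the replicates was the same at every site. It was not in GANAB, MYH9 and the cluster upstream of PSMD12, all of NAT10 knockdown. GANAB, a subunit of glucosidase II, had 6, 4 and 5, then 4, 3 and 7, then 5, 5 and 5. MYH9, a heavy chain of nonmuscle myosin, had 8, 6 and 11, then 6, 6 and 7, then 6, 6 and 4. The sites upstream of PSMD12 had 6, 5 and 7 at both guanosines and 4, 5 and 6 at the cytidine.

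Some neighbours stood clearly apart. SRRM2, a splicing scaffold protein, had a control cluster of 3 sites with 5, 3 and 3 mismatched reads at each, but in its other cluster an adenosine with 4, 13 and 10 mismatched reads and a cytidine 2 bases on with 3, 4 and 5. BUB1, a kinase of the spindle checkpoint, had an adenosine with 6, 4 and 10 and an adjacent thymidine with 4, 3 and 5. The adjacent cytidines of SUPT5H, a transcription elongation factor, had 5, 7 and 13 reads at the first, read as G, and 9, 8 and 3 at the second, read as T, in NAT10 knockdown. Here replicate 3 was the highest at the upstream cytidine and the lowest at the other.

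Pairs of cytidines both read as T, the change that NaBH4 gives at ac4C, were few. ANKRD11, a chromatin regulator, had control cytidines 3 bases apart with 10, 12 and 14 and with 6, 9 and 10 mismatched reads, at levels of 3.76% ± 1.09 and 2.52% ± 0.907 (SD, n = 3). SBF2 had adjacent control cytidines with 8, 7 and 8 and with 8, 7 and 9 mismatched reads, at 3.23% ± 0.513 and 3.38% ± 0.591. In NAT10 knockdown the cytidines upstream of the start of UBXN4 had 7, 3 and 5 and 9, 3 and 5 mismatched reads, at 4.53% ± 2.22 and 5.24% ± 3.36. The pairs named here are clusters of 2 sites, and larger clusters of NAT10 knockdown had higher C-to-T levels. The 3 cytidines of SPATA20 were all read as T, at a mean C-to-T level of 4.56%, against 4.06% for the pair of UBXN4. For the cytidines of HSPG2, described above, it was 12.7%. SPATA20 was picked out after its values were seen. The cytidines of SMG5, a factor of nonsense-mediated decay, lay 2 bases apart and had 5, 6 and 4 mismatched reads at both, but 1 was read as T and the other as G. In ENDOV, the gene of endonuclease V, control cytidines 2 bases apart had 3, 3 and 4 mismatched reads of 14, 39 and 15 at both, and were read as G and as T. CTDP1, a phosphatase of RNA polymerase II, had 4, 3 and 8 reads at both of its cytidines in NAT10 knockdown, again with T at 1 and G at the other.

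The mismatch level, the percent of all reads with another base, was higher at clustered than at other sites in each treated library. Its median in the control was 2.42%, 2.51% and 2.5% at clustered sites, with a mean of 2.48% ± 0.0493 (SD, n = 3), against 2.18% ± 0.0404 at other sites. In NAT10 knockdown it was 3.16% ± 0.317 and 2.27% ± 0.0252. The difference of the medians was 0.301 percentage points for control and 0.887 for NAT10 knockdown libraries, and it was above 0 in 3 of 3 libraries of each group. Taking the median of the 3 libraries, levels of at least 10% were reached by 8 of 185 clustered control sites (4.32%) and 7.88% of the others, and by 17 of 119 clustered sites of NAT10 knockdown (14.3%) and 7.94% of the others. Clustered sites of NAT10 knockdown also had the lower median depth given above, and its part in the level was not tested. Sites of a cluster are not independent, and neither the medians nor these shares were recomputed with 1 site per cluster. By mean level, the sites of NAT10 knockdown at or above 10% came from few clusters. They were all sites of HSPG2, FBXW11, AJUBA and the cluster upstream of PSMD12, and single sites of RFX7 and UBE2B. The sites of AJUBA, none of them a cytidine, had mean levels of 13.3% to 14.8%.

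**Figure D5:**
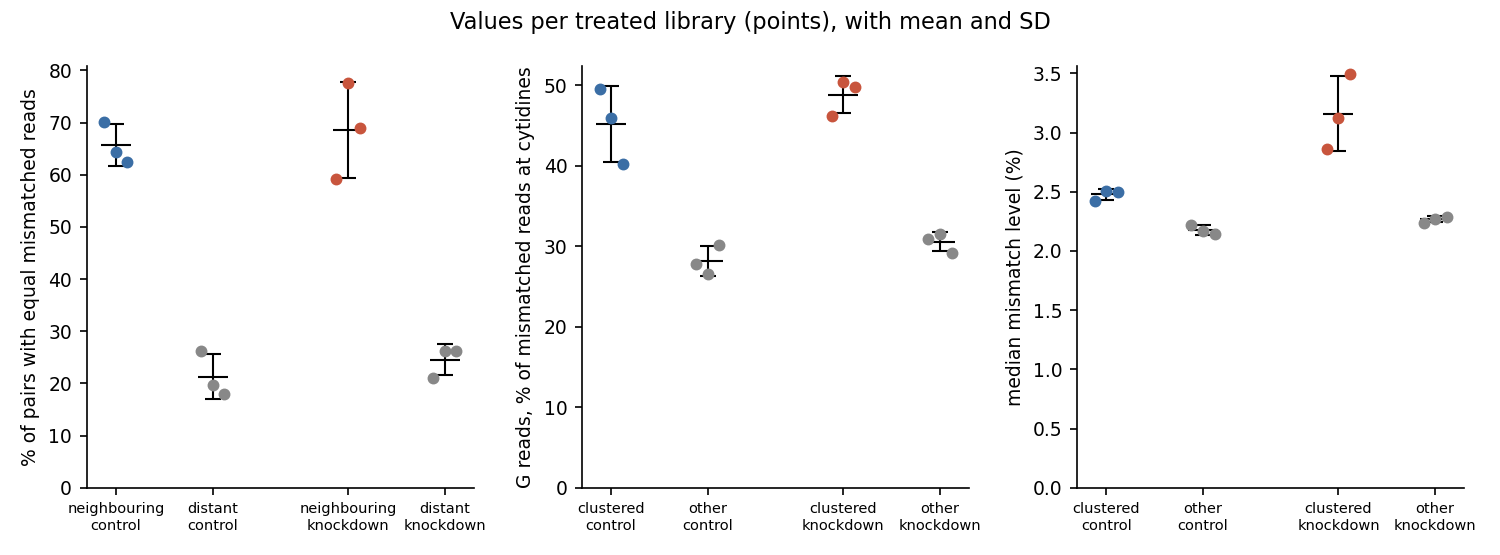
Points are the 3 treated libraries of each group, with the mean and SD, for the share of pairs with equal mismatched reads (left, %), the share of G among mismatched reads at cytidines (middle, %) and the median mismatch level (right, %). In each panel the neighbouring pairs or clustered sites (coloured) lie above the distant pairs or other sites (grey) of their group.

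Steps in depth between neighbours were rare. ACTR2, a subunit of the actin-nucleating Arp2/3 complex, had a control guanosine with 7, 4 and 4 mismatched reads of 14, 15 and 21, next to a cytidine with 10, 4 and 6 of 406, 445 and 459. UBE2B, a ubiquitin-conjugating enzyme, had in NAT10 knockdown an adenosine with 7, 8 and 6 mismatched reads of 14, 12 and 20, at a distance of 6 from a thymidine with 5, 8 and 4 of 540, 452 and 392. Treated reads changed 26.2 times and 30.1 times at these pairs, and by less than 2 times in every other neighbouring pair. The shallow site of UBE2B had the highest level of all members, 48.9% ± 18.4 (SD, n = 3). Its 21 untreated reads allow a background of up to 14.3% by counting error alone. No listed site had an untreated mismatched read, and this limit takes no account of how sites came to be listed. Both pairs were picked out for this step after their values were seen.

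Clusters recurred little between the tables. No cluster of one table lay within 10 bases of a cluster of the other, and no clustered site of either was listed in the other. How often an unclustered site was listed for both groups was not counted here, so this does not set the members apart. In NUCKS1 and PHF12, 4 clustered control sites had an unclustered site of NAT10 knockdown within 10 bases. TIMM50, a subunit of the mitochondrial TIM23 translocase, was the 1 gene with a cluster in both. Its control cluster at chr19:39491540-39491542 was a cytidine and a guanosine with 3, 4 and 4 and with 4, 4 and 4 mismatched reads. Its cluster of NAT10 knockdown at chr19:39491686-39491688 was a guanosine and a thymidine with 6, 4 and 5 at both. At the level of genes, 19 of 80 genes with a control cluster (23.8%) had any site in the table of NAT10 knockdown, against 186 of 1027 genes with unclustered control sites only (18.1%). In the other direction the counts were 12 of 48 (25.0%) and 193 of 787 (24.5%). The members thus share genes between the tables about as often as the rest by count, without a test.

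Of the genes the study discusses, PXN, the gene of the focal adhesion protein paxillin, had a control cluster, which was picked out after its values were seen. It held 2 thymidines, 2 bases apart at chr12:120212521-120212523 on the minus strand, with 3, 4 and 3 mismatched reads at the upstream and 3, 4 and 5 at the downstream site, of 273 to 363 reads. No clustered site lay in ITGB5, BCAR1, JUN, PPP1R12C, DIAPH1, MBD4, DHX30, KDM4A or NAT10, where the tables listed 12 and 3 unclustered sites. Families with many similar copies, whose reads can be hard to place, were rare among all listed sites. No clustered site lay in genes of ribosomal proteins, histones, keratins, tubulins, HLA, the HSPA and HSP90 chaperones or zinc fingers named by ZNF. Among the other control sites these lists took 0.0857% to 1.46% each, so the absence of clustered sites says little about the members. The exceptions by symbol were 2 control sites in ACTR2, 4 sites of NAT10 knockdown in ACTR3 and ACTR8, which are actin-related proteins and not actins, and 2 sites in the elongation factor gene EEF1G. Cluster genes were spread widely, over 80 protein-coding genes for the control and 48 for NAT10 knockdown.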

How the data were processed

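The authors split each RNA sample into a NaBH4-treated and an untreated library and, per the submitters' processing notes, used fastp 0.23.1, STAR 2.7.6a and featureCounts with GRCh38. Their methods also name removal of duplicates by molecular identifiers, base pileups with JACUSA and a site test in proprietary programs. The deposited tables give, per site, read counts as counts of all reads and of mismatched reads for each library, cells with the counts of each base, and p-values of the authors' own test, which served only as a filter in an alternative (under 0.01). Columns were matched to samples by group, treatment and replicate number.

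Clusters, neighbouring pairs and distant pairs were built with Python 3.11.15, numpy 2.4.6 and pandas 2.3.3. Two-sided Fisher's exact tests with conditional odds ratios and 95% intervals came from scipy 1.17.1, and the logistic model from statsmodels 0.14.6. The 16 p-values were adjusted together by Benjamini-Hochberg with a threshold of 0.05. The scripts were tested on simulated data. The tests compare sites or pairs of joint lists, so they do not measure spread between cultures, and nothing states that replicates were separate cultures. Intervals and limits for a count of 0 (3 counts) cover counting error only.

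At clustered sites the treated libraries held 37724 to 39783 reads in the control and 22399 to 24726 in NAT10 knockdown. The clusters, lists and tests were chosen with earlier results of these data known. Named were clusters of at least 4 sites and, in each table, the 4 clusters of 3 sites with most mismatched reads. Of the clusters of 2 sites in each table, named were the 4 equal pairs with most mismatched reads and the 2 most unequal pairs. From the same clusters of 2 sites came the 3 pairs of cytidines with the highest C-to-T level. They also gave 3 pairs of adenosine or thymidine with cytidine or guanosine. Genes with clusters in both tables, and a short list of genes, most of them from the study, were named too. A choice among them is shown. SRRM2's cluster of 3 sites, SPATA20, AJUBA, RFX7 and the genes near start sites were added for their sequence or after their values were seen. Start-site windows ran from 250 bases before to 50 bases after RefSeq starts. Alternatives were other window sizes, 1 site or pair per cluster, read and count minimums, other distances and tolerances for pairs, that filter on p-values, and leaving out each replicate.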

Additional observations from a re-analysis of the deposited data

Results flagged for a closer look

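The share of cytidine among clustered against other sites differed between the tables by a test of the difference itself. The ratio of the odds ratios, NAT10 knockdown over control, was 1.92 (95% interval 1.15 to 3.2), past the threshold after adjustment by a likelihood ratio test. Clustered sites were cytidine in 47.1% of cases in NAT10 knockdown and 33.5% in the control, and the other sites in 26.8% and 28.4%. With only the most upstream site of each cluster counted the ratio was 3.92. That value rests on the choice of site, since the most upstream site was cytidine more often than the most downstream in NAT10 knockdown, but less often in the control. The ratio was not computed with the most downstream site. At least 1 cytidine was present in 46 of 81 control clusters (56.8%) and 33 of 48 clusters of NAT10 knockdown (68.8%), without a test. The test treats sites as units, and the 3 samples of a group stand behind each list jointly.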

How the results depend on the processing

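Of 99 alternative values over 20 results, 94 stayed on the same side of the threshold with the same sign, or moved by less than the replicates differed. With only the most upstream site of each cluster counted the odds ratio of cytidine in the control turned to 0.825. The difference in equal counts between control pairs of the same and of different bases, not past the threshold at any setting, turned to -0.42 percentage points over all pairs and ranged from -6.7 to 13.3 when 1 replicate was left out, with -6.7 without replicate 2. With at least 5 mismatched reads required, the excess of equal neighbouring over distant pairs was 0.0 percentage points for control and 25.0 for NAT10 knockdown pairs, neither past the threshold, with few pairs left. Leaving out a replicate asks for equal counts only in the remaining libraries, which is easier to meet than equality in all 3. The excess of equal neighbouring over distant pairs was then 33.4 to 37.5 percentage points in the control and 34.8 to 42.7 in NAT10 knockdown. These values are not directly comparable in size with those for all 3 libraries. Of the alternatives, 26 were chosen after seeing the data. No paired analysis was possible because the tests between and within the joint lists count sites or pairs, and the groups share only replicate numbers. Within a library, clustered and other values could be paired, a test added after seeing the data: equal counts, mismatch level and G share were higher and T share lower at the members in 3 of 3 libraries of each group (exact sign-flip test, two-sided, p = 0.25 for each, the smallest that 3 libraries allow). Small counts per library and, at single sites, few untreated reads limit what can be told apart.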
